A study of Mus musculus with 6 samples.

Results

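Growth plate cartilage of E18.5 mouse embryos was examined here for 10 genes of macrophages and osteoclasts and of the factors that control them. The genes were Cd68, Lyz2, Csf1r, Tyrobp and Fcer1g (macrophages), Acp5 and Ctsk (osteoclasts), and Csf1, Tnfsf11 and Tnfrsf11b (secreted factors), selected by symbol from the 15803 genes of the table. All 10 were found, and all 10 passed the filter on low values. Of the 6 libraries, the 3 labelled WT were of genotype Hnrnpk fl/fl and the 3 labelled CKO of genotype Col2a1-Cre;Hnrnpk fl/fl, so the floxed alleles were shared and the Cre transgene was not. Cre made from the Col2a1 promoter acts in cartilage cells. Macrophages and osteoclasts descend from blood-forming cells, which that promoter is not known to drive. Embryos of either sex were used and compared with littermates, and whether a library holds a single embryo or a pool was not stated, so the p-values measure the spread between these libraries.

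Each library held between 1153871 and 1454094 reads on genes, so that 1 read was worth between 0.688 and 0.867 CPM (the count of a gene scaled to a fixed library total) and the limit that a count of 0 allows, 3 reads, lay between 2.06 and 2.60 CPM. Hnrnpk itself was at 842, 955 and 944 CPM in WT 1 to 3 and at 759, 949.9 and 780.0 CPM in CKO 1 to 3, values of the whole gene that cannot show the loss of the floxed exons. The direction of each difference below therefore rests on the labels. WT 1 and WT 2 had a correlation of 0.965 across genes, as did CKO 1 and CKO 3, whereas WT 3 was at 0.937 and 0.938 to the other WT libraries and CKO 2 at 0.924 and 0.921 to the other CKO libraries. WT 3 and CKO 2 thus stood apart. Some results that rest on them are also given without WT 3 or without CKO 2, and others only with all libraries. The cartilage genes Col2a1, Acan, Matn1 and Comp were present in every library, as the label of chondrocytes requires, and 6 of the 9 chondrocyte markers tested were called lower in CKO by limma.

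Macrophages and osteoclasts are related cells of the myeloid lineage. Csf1 (M-CSF) binds the receptor tyrosine kinase Csf1r and keeps their precursors alive, and Tnfsf11 (RANKL) binds Tnfrsf11a (RANK) and turns these precursors into osteoclasts, which resorb mineralised cartilage and bone. Tnfrsf11b (osteoprotegerin, OPG) is a soluble decoy receptor that captures RANKL. In a growing bone the ligands and the decoy are made largely by chondrocytes, osteoblasts and stromal cells, and the receptors are carried by the myeloid cells at the border of cartilage and marrow.

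Across the 10 genes, Cd68 was higher in CKO at an adjusted p under 0.05 by limma, and none was lower. Over all 12155 genes tested 3.18% were called higher and 2.6% lower by this rule. The criterion of the study, a log2 fold change above 1 with an unadjusted p under 0.05, was met by 4 of the 10 genes (Cd68, Csf1, Tnfrsf11b and Acp5), against 5.3% of all genes, and by 0 genes in the lower direction, against 5.1%. In 3 of the 10 genes (Cd68, Csf1 and Tyrobp) every library labelled CKO lay above every library labelled WT, against 14.5% of all genes. The median log2 fold change was 1.02 over the 10 genes and 0.013 over all genes tested. Fold changes are on the scale of log2(CPM + 1), where a change is understated when reads are few.

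**Figure D1:**
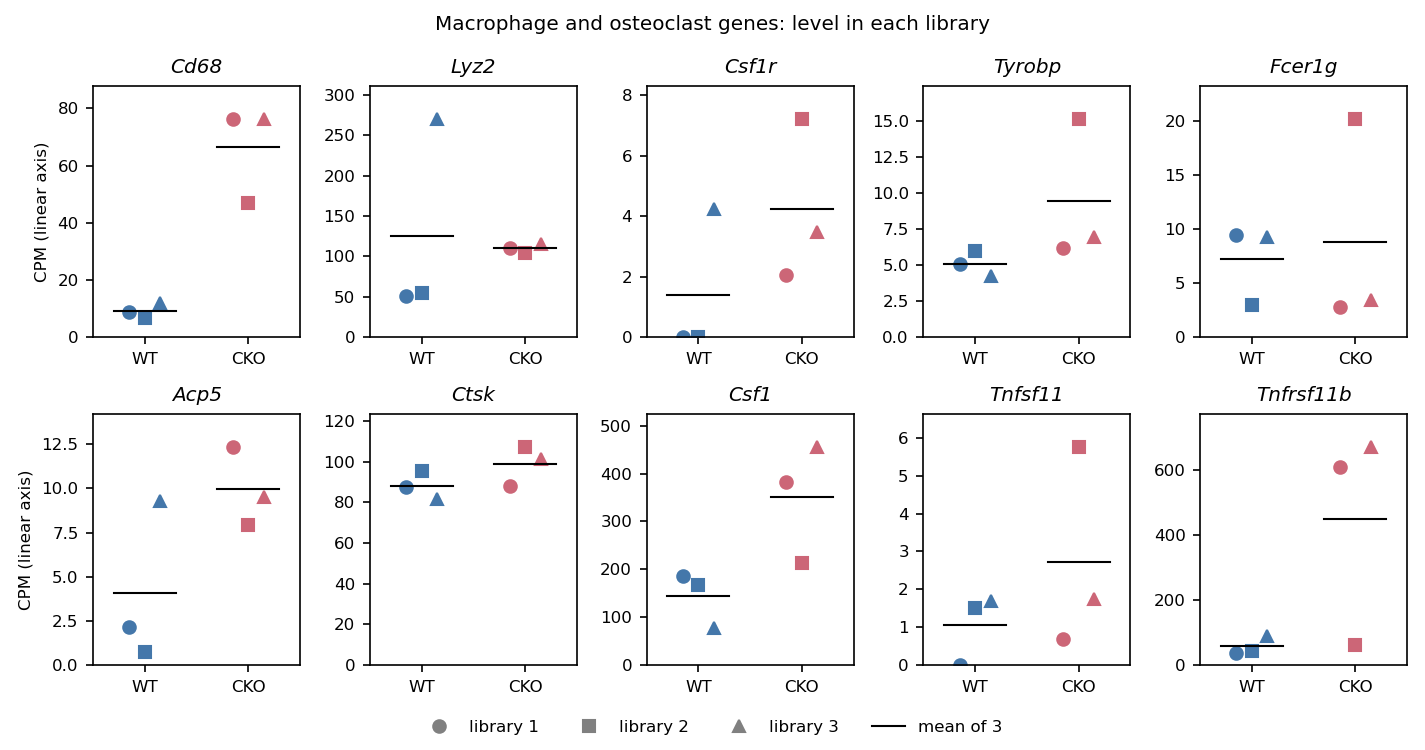
CPM of each of the 10 genes (linear vertical axes starting at 0) in the 3 WT and 3 CKO libraries, with a symbol for each library and a bar at the mean. The Cd68 points of CKO lie between 46.9 and 76.3 CPM, all above those of WT, Tnfrsf11b in CKO 2 lies within the WT range, and Lyz2 stands out in WT 3.

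Cd68 (ENSMUSG00000018774; GRCm38 chromosome 11, 69664213 to 69666153, minus strand) encodes a glycoprotein of late endosomes and lysosomes that is abundant in macrophages and osteoclasts and is commonly used to stain them. It had 12, 9 and 14 reads in WT 1, 2 and 3 and 111, 65 and 88 reads in CKO 1, 2 and 3. Scaled for depth, the lowest library labelled CKO was at 46.9 CPM and the highest labelled WT at 11.8 CPM. In CPM, Cd68 rose from 9.09 ± 2.56 (SD, n = 3) in WT to 66.5 ± 17.0 (SD, n = 3) in CKO, a ratio of means of 7.31. On the log2 scale this was a change of 2.74 (SE 0.29, adjusted p = 0.00114 by limma), and the exact two-sided permutation test gave p = 0.1, the smallest that 3 libraries against 3 allow. When single libraries were dropped, the change stayed between 2.56 and 2.97, and the adjusted p was at most 0.0120 over all 14 alternatives. In bulk tissue, more cells of a type and more RNA per cell cannot be told apart, here and for the genes below. Nor was the cell type that held the RNA of these genes measured.

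The promoter of Cd68 is shown because Cd68 is the gene of the set that was called, beside that of Ctsk, an osteoclast gene whose libraries overlapped, and that of Csf1, a ligand gene whose libraries did not. The sequences, from RefSeq on GRCm38.p6, run 5′ to 3′ on the strand of the gene from 250 bases before the annotated start to 50 bases after it. RefSeq promoters of 7 of the 10 genes were searched, and those of Csf1r, Tyrobp and Tnfrsf11b were not. Capitals mark matches on either strand to GAGGAA, the core bound by the myeloid factor PU.1, or to TGANTCA, the site of AP-1 factors such as Fos.
Cd68, chr11:69666121-69666420, minus strand: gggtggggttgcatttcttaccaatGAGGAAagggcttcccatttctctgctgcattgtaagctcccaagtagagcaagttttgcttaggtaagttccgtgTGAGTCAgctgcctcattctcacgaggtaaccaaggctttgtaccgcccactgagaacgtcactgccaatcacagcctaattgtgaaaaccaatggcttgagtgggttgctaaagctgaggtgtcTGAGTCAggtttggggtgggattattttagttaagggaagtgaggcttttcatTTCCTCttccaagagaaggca
Ctsk, chr3:95498960-95499259, plus strand: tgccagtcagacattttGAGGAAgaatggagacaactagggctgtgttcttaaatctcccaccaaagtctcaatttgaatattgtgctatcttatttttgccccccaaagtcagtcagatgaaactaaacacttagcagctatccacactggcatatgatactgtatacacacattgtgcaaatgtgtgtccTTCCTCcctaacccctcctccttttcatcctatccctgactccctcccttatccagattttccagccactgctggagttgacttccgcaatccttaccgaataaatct
Csf1, chr3:107760420-107760719, minus strand: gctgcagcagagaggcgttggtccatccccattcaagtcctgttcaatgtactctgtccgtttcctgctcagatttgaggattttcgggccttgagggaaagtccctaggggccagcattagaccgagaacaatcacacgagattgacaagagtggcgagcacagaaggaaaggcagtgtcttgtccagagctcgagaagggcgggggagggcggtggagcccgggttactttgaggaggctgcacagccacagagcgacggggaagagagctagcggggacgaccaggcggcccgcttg
The Cd68 window held both AP-1 matches found in the 7 genes, at bases -149 to -143 and -24 to -18 before the start, and 2 matches to the PU.1 core, at -225 to -220 and at 30 to 35 on the opposite strand. The Ctsk window held 2 PU.1 core matches, at -233 to -228 and at -58 to -53 on the opposite strand, and the Csf1 window held no match. A match to TGANTCA was present in 7.81% and to GAGGAA in 28.3% of the 32851 promoters of this length, while CACGTG, the E-box of MiT factors such as Mitf, was in 7.15% and in none of the windows of the 7 genes. These matches describe letters and not binding.

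Lyz2 (ENSMUSG00000069516; chromosome 10, 117277331 to 117282321), which encodes the lysozyme of macrophages and neutrophils, did not differ by the test. Its reads numbered 71, 73 and 320 in WT 1, 2 and 3 and 161, 145 and 133 in CKO 1, 2 and 3. WT 3 held 69.0% of the WT reads, and the libraries labelled CKO lay between WT 2 and WT 3. Lyz2 had a log2 fold change of 0.26 (SE 0.51, adjusted p = 0.810 by limma). Without WT 3 it was 1.04 (adjusted p = 0.0153 by limma), and without WT 1 or WT 2 it was -0.15 and -0.10. Lyz1, a neighbouring copy with 95.8% identity over 1264 bases that could share these reads, was listed with a total of 1 read over the 6 libraries.

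Tyrobp and Fcer1g encode the adaptors DAP12 and the common Fc receptor gamma chain, which carry activating signals of myeloid receptors into the cell and costimulate osteoclast formation. Tyrobp (ENSMUSG00000030579; chromosome 7, 30413760 to 30417585) had 7, 8 and 5 reads in WT 1, 2 and 3 and 9, 21 and 8 in CKO 1, 2 and 3. In CPM the libraries labelled CKO, from 6.19 upward, lay above those labelled WT, at most 6.0, by a margin smaller than the value of 1 read. The log2 difference of Tyrobp, 0.68 (SE 0.41, adjusted p = 0.370 by limma), did not pass the test, and was 0.32 without CKO 2. Fcer1g (ENSMUSG00000058715; chromosome 1, 171229572 to 171234365) had 13, 4 and 11 reads in WT and 4, 28 and 4 in CKO, with CKO 2 far above every other library. Fcer1g had a log2 difference of -0.09 (SE 0.66, adjusted p = 0.957 by limma), and -0.88 without CKO 2 and 0.13 without WT 3. The highest library was CKO 2 for either adaptor.

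Csf1r (ENSMUSG00000024621; chromosome 18, plus strand), the receptor for Csf1, was near the limit of detection. It had 0, 0 and 5 reads in WT 1, 2 and 3 and 3, 10 and 4 in CKO 1, 2 and 3. The groups overlapped, since WT 3 lay above CKO 1 and CKO 3. Pooled over libraries, 17 reads in CKO against 5 in WT gave a ratio of 3.32 (exact 95% interval 1.17 to 11.5, counting error only). Csf1r gave 1.48 on the log2 scale (SE 0.70, adjusted p = 0.258 by limma). WT 3 held every WT read of Csf1r, and without it the value was 2.27 (adjusted p = 0.0644 by limma). Without CKO 2 it was 1.09, and 1.08 without either WT 1 or WT 2, while the ratio of mean CPM was 1.96 without CKO 2 against 3.02 with all libraries. The end of Hmgxb3, on the opposite strand, overlaps the Csf1r locus, and the strand setting of the counting is not given in the sources used here.

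Csf1 (ENSMUSG00000014599; chromosome 3, 107741048 to 107760469, minus strand), the ligand of Csf1r, was far more abundant than the receptor. It had 257, 224 and 91 reads in WT 1, 2 and 3 and 555, 294 and 527 in CKO 1, 2 and 3. The libraries labelled CKO lay above those labelled WT, with CKO 2 closest to them at 212 CPM against 186 CPM in WT 1. WT averaged 144 ± 58.6 CPM (SD, n = 3) and CKO 350.2 ± 125 CPM (SD, n = 3), a ratio of 2.44. Csf1 was 1.31 higher on the log2 scale (SE 0.35), which met the criterion of the study but missed the threshold after adjustment (adjusted p = 0.0569 by limma). Dropping CKO 2 gave 1.63 (adjusted p = 0.00872 by limma), dropping WT 3 gave 0.91 (adjusted p = 0.115 by limma), and over the 14 alternatives the adjusted p ran from 0.00606 to 0.205. Il34, the other ligand of Csf1r, had between 3 and 5 reads in the libraries labelled WT and 8 to 13 in those labelled CKO, which did not overlap (log2 fold change 1.02, adjusted p = 0.154 by limma). Of all genes, 14.5% were higher in CKO without overlap.

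Tnfrsf11b (ENSMUSG00000063727; chromosome 15, 54250619 to 54278484, minus strand), the decoy receptor for RANKL, had the largest SE of the 10 genes. It had 52, 58 and 107 reads in WT 1, 2 and 3 and 888, 85 and 776 in CKO 1, 2 and 3. CKO 1 and CKO 3 stood at 611 and 673 CPM, whereas CKO 2, at 61.4 CPM, lay within the WT range of 37.7 to 90.4 CPM. Tnfrsf11b too met the criterion of the study, with a log2 difference of 2.45 (SE 0.75), and missed the threshold after adjustment (adjusted p = 0.0879 by limma). Dropping CKO 2 gave 3.57 (adjusted p = 8.68e-05 by limma) and a ratio of means of 11.2, against 7.84 with all libraries. On the log2 scale the difference was 2.83 without WT 3, 1.92 without CKO 1 and 1.85 without CKO 3. Over the 14 alternatives the adjusted p ran up to 0.269.

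Tnfsf11 (ENSMUSG00000022015; chromosome 14, 78277445 to 78308043, minus strand), which encodes RANKL, could hardly be measured at this depth. It had 0, 2 and 2 reads in WT 1, 2 and 3 and 1, 8 and 2 in CKO 1, 2 and 3. Only CKO 2 held more than the 3 reads of the detection limit. The ratio of pooled reads, 11 against 4, was 2.68 (exact 95% interval 0.795 to 11.6, counting error only) with a log2 difference of 0.74 (SE 0.64, adjusted p = 0.556 by limma). Without CKO 2, which held 8 of the 11 CKO reads, the log2 difference was 0.19 and the ratio of mean CPM 1.14, against 2.57 with all libraries. Without WT 1 the log2 difference was 0.28, and without WT 3 it was 0.99. CKO 2 was thus the library with the fewest reads of the decoy and the most reads of the ligand among those labelled CKO. A ratio of decoy to ligand is not given, because 5 of 6 libraries hold at most 2 reads of the ligand.

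Ctsk (ENSMUSG00000028111; chromosome 3, 95499256 to 95509362, plus strand), the collagen-cleaving cysteine protease cathepsin K of osteoclasts, had the smallest SE of the 10 genes. It had 121, 127 and 97 reads in WT 1, 2 and 3 and 128, 149 and 117 in CKO 1, 2 and 3, and the groups overlapped. WT averaged 88.3 ± 6.70 CPM (SD, n = 3) and CKO 99.0 ± 9.98 CPM (SD, n = 3), so that Ctsk was 0.16 higher on the log2 scale (SE 0.17, adjusted p = 0.641 by limma), a difference that stayed between 0.099 and 0.24 over the 14 alternatives. Acp5 (ENSMUSG00000001348; chromosome 9, 22126727 to 22135711, minus strand) encodes tartrate-resistant acid phosphatase, the enzyme behind the TRAP stain for osteoclasts. It had 3, 1 and 11 reads in WT 1, 2 and 3 and 18, 11 and 11 in CKO 1, 2 and 3. WT 1 and WT 2 lay below every library labelled CKO, and WT 3, at 9.29 CPM, lay above CKO 2 at 7.94 CPM. Acp5 met the criterion of the study with a log2 difference of 1.49 (SE 0.59), at an adjusted p = 0.180 by limma. Dropping WT 3 gave 2.20 (adjusted p = 0.0308 by limma), and without WT 2 it was 0.92. An annotated transcript on the opposite strand, 6530413G14Rik, overlaps Acp5.

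**Figure D2:**
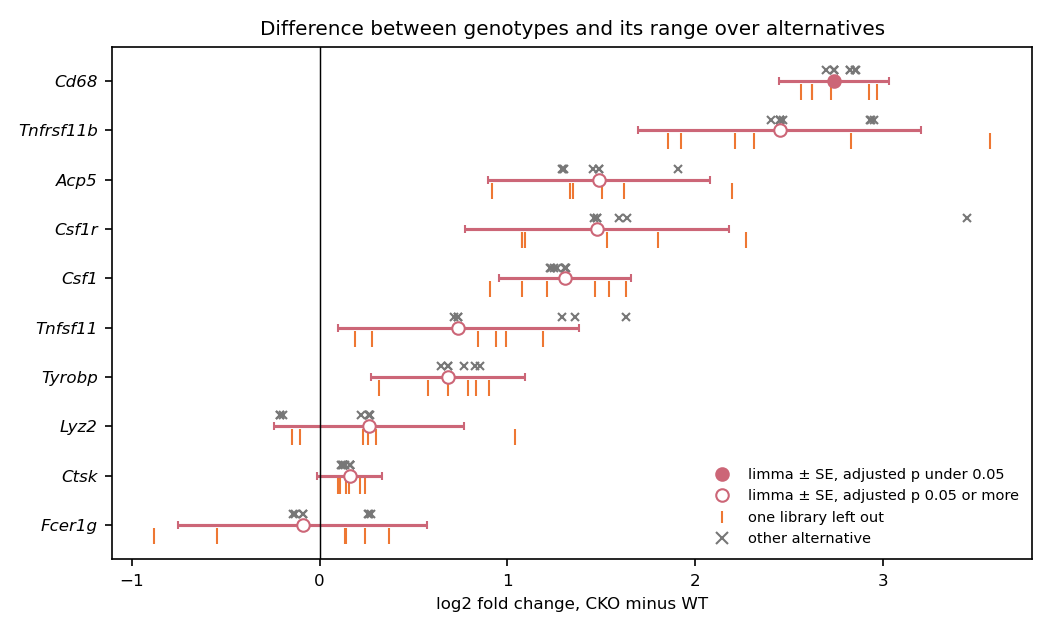
Log2 fold change on the horizontal axis (CKO minus WT, log2(CPM + 1) for limma) for each gene, with its standard error as a bar, the values with each library left out as orange ticks and those of the other alternatives as grey crosses. Cd68, the filled point, stays between 2.56 and 2.97, Tnfrsf11b spreads from 1.85 to 3.57, and the values of Lyz2 and Fcer1g lie on either side of 0.

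Levels of different genes were compared as CPM per kilobase of annotated exon. In WT the mean was 95.4 for Lyz2, 58.4 for Ctsk, 27.2 for Csf1, 20.3 for Tnfrsf11b, 8.28 for Fcer1g, 7.65 for Tyrobp, 7.23 for Cd68, 2.01 for Acp5, 0.476 for Tnfsf11 and 0.244 for Csf1r. The ranges of neighbours in this order overlapped except between Ctsk and Csf1, between Tnfrsf11b and Fcer1g, and between Cd68 and Acp5. In CKO, Tnfrsf11b led with 159 CPM per kilobase but a range from 21.8 to 239, and Cd68 reached 52.9, with a range that overlapped that of Ctsk at 65.5 and no longer met those of Tyrobp and Fcer1g. Csf1r and Tnfsf11 were lowest in either genotype.

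Several defining genes of macrophages were at or near 0 in both genotypes. Ptprc (CD45, the surface phosphatase of blood cells) had a total of 1 read over the 6 libraries, as did Itgam (CD11b), and Spi1, which encodes PU.1, had at most 1 read in each library. Mrc1 had at most 2 reads and C1qa, a complement subunit made by macrophages, also at most 2. Adgre1 (F4/80) had 1, 3 and 5 reads in WT and 1, 12 and 3 in CKO, again with CKO 2 highest. Of the 30 genes of a macrophage list, 27 were in the table (11 with at most 3 reads in every library, 6 of the 27 at 0 in every library labelled WT) and 15 could be tested, of which 0 passed limma's adjusted threshold and 2 had an unadjusted p under 0.05, against 21.3% of all genes (median log2 fold change 0.35, against 0.013 for all genes). These 2, named here after their values were seen, were Cd14, a receptor for bacterial lipopolysaccharide, and Coro1a, an actin-binding protein of blood cells. Cd14 had 0, 1 and 5 reads in WT and 11, 24 and 5 in CKO (log2 fold change 2.17, adjusted p = 0.0876 by limma), and Coro1a 0, 1 and 3 against 5, 9 and 4 (log2 fold change 1.53, adjusted p = 0.143 by limma). In CPM neither overlapped between genotypes, while 14.5% of all genes were higher in CKO without overlap. For Cd14 the margin, 4.22 CPM in WT 3 against 4.33 CPM in CKO 3, was smaller than the value of 1 read. On the recovered reads edgeR could test 3 genes of the list and DESeq2 5, and each called 0, whereas edgeR without a filter tested 27 and called Cd14. Other members had more reads with overlapping libraries, such as Ctss, a lysosomal protease, with 7, 6 and 62 reads in WT and 18, 45 and 9 in CKO. Summed over the 26 genes other than Lgals3, which cartilage cells also express, the list held 34, 44 and 163 reads in WT 1, 2 and 3 and 72, 241 and 56 in CKO 1, 2 and 3, so WT 3 and CKO 2 were highest and the genotypes overlapped. With 1 of these libraries left out at a time, the log2 fold change of Cd68 was 2.93 without WT 3 and 2.97 without CKO 2. They were not left out together, and the part of macrophage content in the Cd68 difference was not tested.

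**Figure D3:**
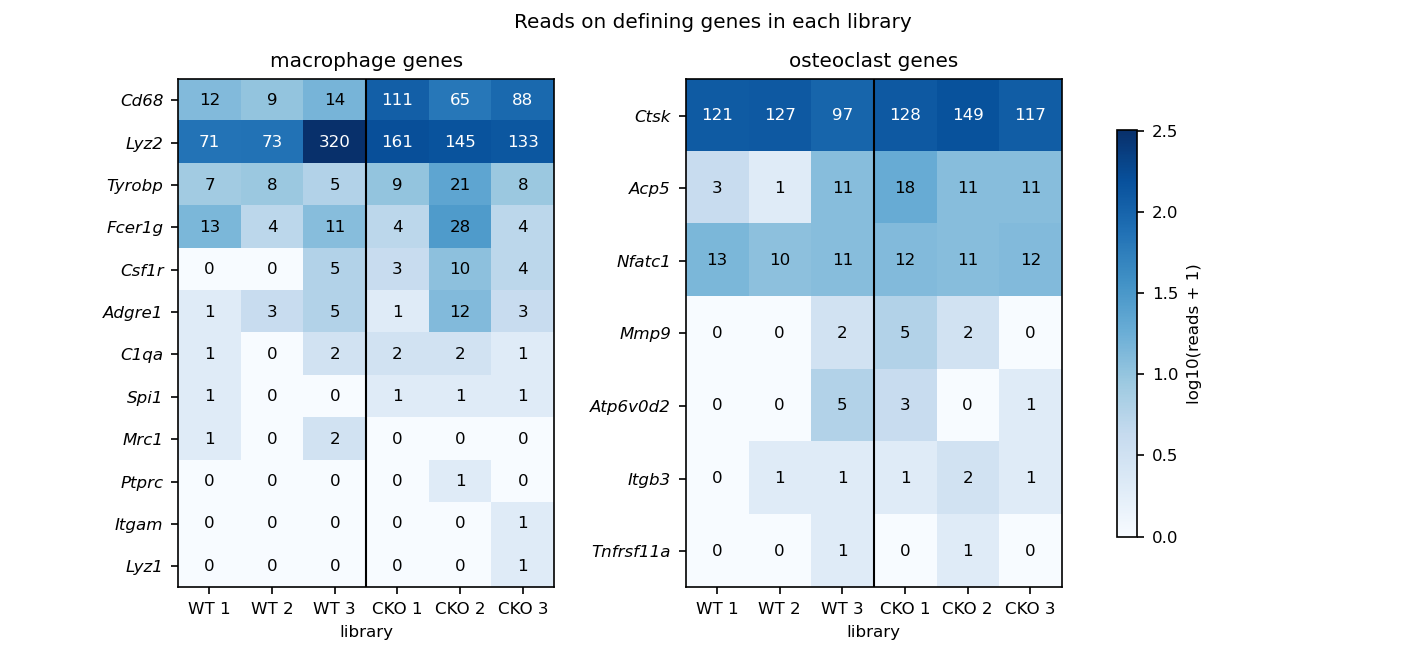
Reads in each library (numbers in the cells, shading on a log10(reads + 1) scale) for macrophage genes on the left and osteoclast genes on the right, with a line between WT and CKO. Cd68 goes from at most 14 reads in WT to at least 65 in CKO, while Ptprc, Itgam and Lyz1 each hold a total of 1 read over the 6 libraries and Nfatc1 stays between 10 and 13.

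Osteoclast genes beyond Acp5 and Ctsk gave few reads as well. Tnfrsf11a, the receptor RANK, had a total of 2 reads over the 6 libraries, and Dcstamp and Calcr were not found by symbol among the genes listed. Itgb3 had at most 2 reads in each library, and Mmp9, the gelatinase of osteoclasts, had 0, 0 and 2 in WT and 5, 2 and 0 in CKO. Atp6v0d2, a proton pump subunit of osteoclasts, had 0, 0 and 5 in WT and 3, 0 and 1 in CKO. Nfatc1, the transcription factor that RANKL induces, had between 10 and 13 reads in every library (log2 fold change 0.02, standard error 0.32, adjusted p = 0.984 by limma). Of a list of 21 osteoclast genes, 18 were in the table and 15 were tested. Past limma's adjusted threshold 2 were higher and 0 lower, against 3.18% and 2.6% of all genes. The median log2 fold change of the 15 was 0.38, against 0.013 for all genes tested. Car2, at 0 CPM in WT, Ostm1 (mean 0.242 CPM) and Mmp9 (mean 0.563 CPM) were under 1 CPM in WT. These genes passed the filter only through CKO, so their rise is not independent of the filter. Atp6v0d2, with a mean of 0.977 CPM in CKO, passed only through WT.

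The genes called were Car2 and Fos. Car2, the carbonic anhydrase that supplies protons for resorption and is also made by other cells, had 0 reads in every library labelled WT and 5, 14 and 3 in CKO 1, 2 and 3, which made it at least 2.32-fold higher against the limit of 3 reads per library (adjusted p = 0.0262 by limma). Fos, a subunit of AP-1 that osteoclast formation needs and that many cells induce under stress, had 3, 3 and 2 reads in WT and 20, 18 and 13 in CKO, a ratio of pooled reads of 6.22 (exact 95% interval 2.93 to 15.2, counting error only; adjusted p = 0.00795 by limma). No library of one genotype reached the other in either gene, while 14.5% of all genes were higher in CKO without overlap. For Car2 the 3 reads of CKO 3 were within the limit that a count of 0 allows. Fos was called whichever library was left out, while Car2 was called without CKO 2 and not without WT 1, WT 2, WT 3, CKO 1 or CKO 3 (adjusted p by limma between 0.0525 and 0.0987) or with the replicate block (0.0550).

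Signalling genes around the 10 were counted in 4 further lists. Of the partners of DAP12 and the Fc receptor gamma chain, 10 of 18 genes were tested, 0 passed limma's adjusted threshold and 3 had an unadjusted p under 0.05, against 21.3% of all genes. The edgeR and DESeq2 tests could each run on 2 of these genes and called 0, and edgeR without a filter called 0 of 16. The 3 genes were Trem2, Tec and Plcg2. Trem2, a receptor that signals through DAP12, was higher, with 3, 2 and 3 reads in WT and 7, 10 and 11 in CKO (log2 fold change 1.39, adjusted p = 0.0833 by limma), as was Tec, a kinase, with 1, 1 and 0 reads in WT and 4, 6 and 2 in CKO (log2 fold change 1.39, adjusted p = 0.144 by limma). Plcg2, a phospholipase that acts below these adaptors, went the other way, with 3, 3 and 6 reads in WT and 2, 1 and 0 in CKO (log2 fold change -1.31, adjusted p = 0.185 by limma). Tec averaged 0.492 CPM in WT and Plcg2 0.699 CPM in CKO, so each passed the filter only through the other genotype. In the CSF1 list 5 of 9 genes were tested, with a median log2 fold change of 0.51. Of these limma called 0 higher and 1 lower, against 3.18% and 2.6% of all genes. An unadjusted p under 0.05 was found for 3, against 21.3% of all genes, with Il34 and Sdc1 higher and Csf2ra lower. The gene called was Csf2ra, also called by edgeR among 2 genes tested and by DESeq2 among 3. It had 33, 27 and 20 reads in WT 1, 2 and 3 and 9, 7 and 6 in CKO 1, 2 and 3. Csf2ra, a receptor subunit for GM-CSF, fell by 1.71 in log2 terms (SE 0.30, adjusted p = 0.0115 by limma), from 20.4 ± 3.51 CPM (SD, n = 3) to 5.48 ± 0.618 CPM (SD, n = 3). Without WT 1 and without WT 2 its adjusted p by limma was 0.0735 and 0.0628. Of 15 genes of RANK signalling, 13 were tested with 0 called by limma and a median log2 fold change of -0.23. An unadjusted p under 0.05 was found for 6 of them, against 21.3% of all genes, with Nfkb2 and Vdr higher and Tab2, Map3k7, Lgr4 and Pth1r lower. Of this list edgeR tested 8 genes and DESeq2 9, each with 0 called, and edgeR without a filter called Pth1r lower among 15. Chemokines and cytokines that attract myeloid cells gave 10 tested genes of 18, with 0 called by limma, 2 with an unadjusted p under 0.05 (Ccl7 higher and Cxcl12 lower) and a median of 0.046. Both edgeR and DESeq2 tested 7 of these and called 0, and edgeR without a filter called Cxcl12 lower among 17. The genes named here with an adjusted p of 0.05 or more, apart from Il34, were chosen after their values were seen.

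Several chemokine genes, chosen after their values were seen, had their highest levels in WT 3 and CKO 2. Ccl2, which recruits monocytes, had 11, 5 and 407 reads in WT 1, 2 and 3 and 48, 418 and 36 in CKO 1, 2 and 3. Ccl7 had 24, 20 and 161 in WT and 110, 244 and 89 in CKO, and Cxcl1 had 2, 13 and 87 in WT and 37, 152 and 22 in CKO. Pf4, a chemokine of platelets and some macrophages, had 2, 4 and 24 in WT and 9, 75 and 9 in CKO. For each of these genes WT 3 was the highest library labelled WT and CKO 2 the highest labelled CKO. Cxcl12, which retains blood progenitors, instead had 1071, 852 and 791 reads in WT and 503, 71 and 371 in CKO, without overlap (log2 fold change -1.94, adjusted p = 0.0790 by limma). Over all genes 13.2% were lower in CKO without overlap. The ratio of mean CPM of Cxcl12 was 0.345 with all libraries and 0.480 without CKO 2.

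Markers of other cells moved with some of these values, and their part in the results was not tested. The 8 osteoblast markers in the table summed to between 487 and 708 CPM in WT, and to 1316, 375 and 1408 CPM in CKO 1, 2 and 3, with Phex at 0 in every library labelled WT. This is the order of Tnfrsf11b among the libraries labelled CKO, and Ibsp (bone sialoprotein) alone went from 110 to 178 reads in WT to 1030, 115 and 932 in CKO 1, 2 and 3. Not every osteoblast marker rose in CKO. Col1a1, which gave most of the WT sum, averaged 389.7 CPM in WT and 251.3 CPM in CKO without overlap (log2 fold change -0.57, adjusted p = 0.179 by limma). For comparison, 13.2% of all genes were lower in CKO without overlap. Alpl differed by 0.06 on the log2 scale (adjusted p = 0.965 by limma). The 5 neutrophil markers in the table summed to between 63.1 and 97.1 CPM in WT and between 173 and 239 CPM in CKO, almost all from Lcn2, which other cells also make, while S100a8 had a total of 1 read over the 6 libraries. Mast cell markers (4 in the table) summed to at most 3.61 CPM and the lymphocyte marker in the table to at most 2.17 CPM. Erythroid markers (4 in the table) reached 28.9 CPM in CKO 2 and at most 6.07 CPM elsewhere, and 9 endothelial markers stayed between 8.70 and 19.1 CPM with Pecam1 at most at 1 read per library. Muscle markers (8) ran from 36.8 to 165 CPM, highest in WT 3, and epithelial markers (5) from 18.6 to 60.6 CPM, highest in CKO 2. The 10 chondrocyte markers summed to between 13983 and 18968 CPM in WT and between 3692 and 4488 CPM in CKO.

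Genes with the most similar profile over the 6 libraries were ranked by the root mean square difference of log2(CPM + 1) centred on each gene's mean, among 6822 named genes averaging 10 CPM or more. The mean profile of the 5 macrophage genes was closest to that of Ifitm3, an interferon-induced membrane protein, with a difference of 0.142, then Sdk2, Sh3kbp1, Loxl3 and Camk2d. For the mean of Acp5 and Ctsk the closest were Pla2g6 at 0.115, Abhd5, Lsg1, Yipf6 and Mad2l1bp. Profiles of single genes were added after the values were seen. Cd68 was nearest to Ackr3 (0.260), a scavenging receptor for Cxcl12, Tinagl1, Prg4, Timp1 and Il1rl1. Most genes of the macrophage list averaged under 10 CPM and so could not be ranked. Tnfrsf11b was nearest to Mmp13 (0.428), the collagenase of hypertrophic chondrocytes and osteoblasts, then Ibsp, Angptl7, Slpi and Sfrp4. Csf1 was nearest to Mmp11 (0.152), Pqlc3, 2210408I21Rik, Serpine2 and Prss23.

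**Figure D4:**
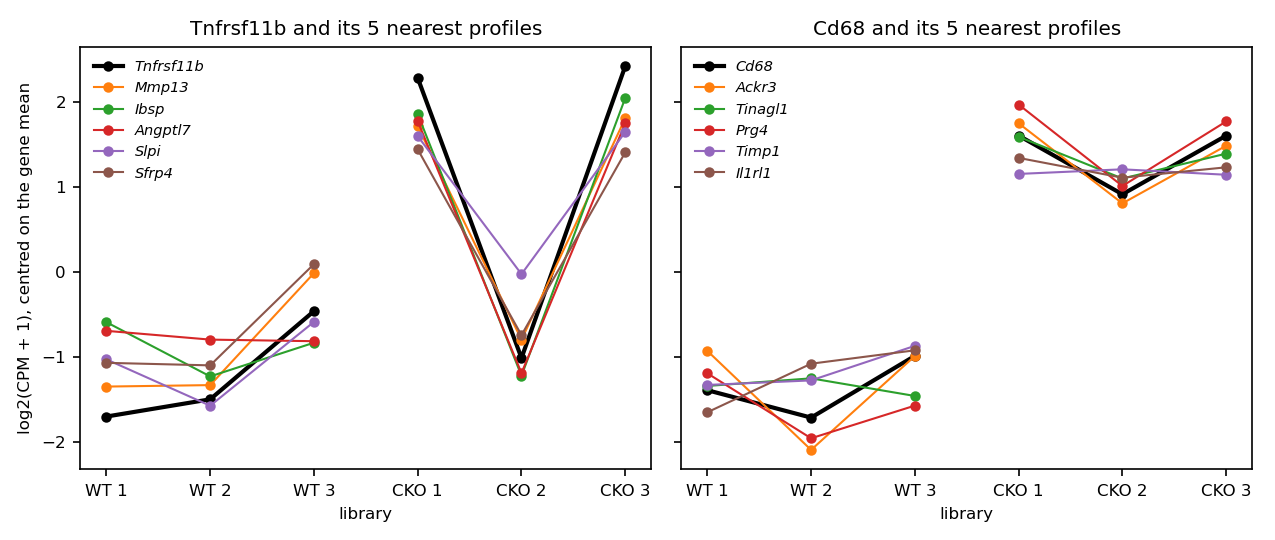
Log2(CPM + 1) centred on each gene's mean (vertical axis) in the 6 libraries for Tnfrsf11b on the left and Cd68 on the right, each in black with its 5 nearest genes in colours. The lines only join the points of a gene. Tnfrsf11b, Mmp13 and Ibsp are high in CKO 1 and CKO 3 and low in CKO 2, whereas Cd68 and its neighbours are high in every library labelled CKO.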

How the data were processed

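Total RNA of E18.5 growth plate cartilage was made into libraries with a stranded mRNA kit. The authors deposited CPM per gene for 3 WT and 3 CKO libraries; the submitters' processing notes name cutadapt 2.5, HISAT2 and featureCounts 1.6.3, and the genome build and annotation are not given in the sources used here. Samples were grouped by title. All deposited CPM values (100%) corresponded to whole reads within 0.01 reads, and reads were recovered from them. In R 4.3.3, limma 3.58.1 was fitted to log2(CPM + 1) on genotype for the 12155 genes whose average reached 1 CPM, using eBayes with trend, and p-values were adjusted by Benjamini-Hochberg over those genes. The edgeR 4.0.16 quasi-likelihood test and DESeq2 1.42.0 served as alternatives on these reads, with the settings given in the closing section, and the fits were tested on simulated data. Intervals of read ratios are exact and cover counting error only. Positions and exon lengths came from GENCODE M21 (GRCm38), matched by gene ID (15212 of 15803), and promoters from RefSeq. Near-identical copies were sought with BLAST 2.17.0 (at least 90% identity over 300 bases). The 10 genes, the lists and the rule for named genes (the 10, list genes with an adjusted p under 0.05, a fixed set of defining genes, and the 5 nearest profiles) were chosen with earlier results of these data known.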

Additional observations from a re-analysis of the deposited data

How the results depend on the processing

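Of the 10 genes, 1 was called higher by limma, and 2 with no filter on low values, 2 with the edgeR quasi-likelihood test, 3 with DESeq2, 3 with edgeR without a filter (added after the data were seen) and between 1 and 3 with each library left out. The additions were Csf1 and Tnfrsf11b, except without WT 3, when they were Lyz2 and Acp5. Cd68 was called in all 14 alternatives, and 0 genes of the 10 were called lower in any of them, nor did any have a negative log2 fold change with an unadjusted limma p under 0.05. The log2 fold change of Lyz2 changed sign with edgeR (-0.21, and -0.21 without a filter) and DESeq2 (-0.20), and ran from -0.15 to 1.04 with each library left out. That of Fcer1g was 0.27 with edgeR, 0.26 with DESeq2 and 0.26 with edgeR without a filter, and ran from -0.88 to 0.37 with each library left out. The cause was not tested. The signs of the other 8 genes held in every alternative that could test them.

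Among the wider lists 66 genes were tested. Of these limma called 2 higher and 1 lower, against 3.18% and 2.6% of all genes. The count of higher genes was 0 with a mean of at least 10 CPM, which leaves Car2 and Fos untested, 1 with edgeR, which did not test Car2, 1 with DESeq2, which gave Car2 no adjusted p, 3 with edgeR without a filter, 1 with the replicate block and between 1 and 3 with each library left out. The count of lower genes was 3 with edgeR without a filter and between 0 and 2 with each library left out, and it was 0 without WT 1 and without WT 2. Scaling by TMM factors and a pseudocount of 0.1 left these counts as they were.

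Libraries with the same replicate number share only that number. The deviations from the group means of WT and CKO libraries had correlations of 0.038, -0.13 and -0.10 for numbers 1, 2 and 3, and no library correlated best with the library of its own number. With the replicate block 1 of the 10 genes was called higher, and 225 genes over the table were higher and 160 lower, against 387 and 316. With edgeR on the recovered reads 374 genes were higher and 363 lower. At this depth a gene with at most 3 reads in a library, as Tnfsf11 in 5 libraries, is within the limit that a count of 0 allows.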
